A study of Bos taurus with 8 samples.

Results

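The custom array of this study carried 628 probes on bovine chromosome 7, out of 10249 probes that were not controls, which is 6.13% of the array. They were taken by the chromosome name in the scanner files, without reference to any measured value, and lay between 3939021 and 54083153 in Btau_3.1 coordinates. Splitting them wherever neighbouring starts were more than 20000 bp apart gave 8 loci, numbered here 1 to 8 along the chromosome. The sources used here place no gene at these probes, so loci are given by position, and whether a probe lies in an exon, an intron or between genes was not analysed here.

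DNA methylation was compared in the arcuate nucleus of the hypothalamus of 8 female heifers (Bos taurus), 1 array per heifer. The 4 high-gain heifers (heifers 1 to 4) were fed for a targeted body weight gain of 1 kg per day, and the 4 low-gain heifers (heifers 5 to 8) for 0.5 kg per day, both between 4.5 and 8.5 months of age, when the tissue was taken. On each array, DNA captured by a methyl-CpG binding domain (MBD) protein and labelled with Alexa Fluor 647 was hybridised together with total (input) DNA of the same heifer labelled with Alexa Fluor 555. The labels give no breed, pen or sampling day, and no ungrouped or untreated animals were included, so the low-gain schedule is the only comparator.

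In vertebrate DNA, methylation falls mostly on cytosines that are followed by guanine. An MBD protein binds such sites when they are methylated, and it captures a fragment more readily the more methylated sites that fragment holds, so a fragment can be little captured because it is unmethylated or because it has few CpG sites. The arcuate nucleus holds the neurons that sense leptin, insulin and other signals of body energy and pass them to the circuits that govern appetite and, in growing heifers, the onset of puberty. Its neurons, glia and vascular cells were profiled together, so a change in methylation within cells and a change in the mix of cells cannot be told apart here. The tissue label could not be checked against marker genes, because the arrays measured DNA.

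The value used throughout is the log2 ratio of enriched over input signal, minus the median of that ratio over all 10249 probes of the same array. A value of 0 is therefore the array's typical probe, and a negative value means that a probe was captured less than that, not that it was unmethylated. Regions were stretches of at least 3 probes with neighbouring starts at most 1000 bp apart. Chromosome 7 held 62 of the 960 regions of the array, and they covered 605 of its 628 probes. All 8 arrays lay on 1 slide and carried 1 scan date. No spot was saturated, and 3 of the 28 spots left out as outliers by the scanner software were on chromosome 7.

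The 8 loci differed widely in size. Locus 1 ran over 3939021 to 3978249 (66 probes) and locus 2 over 4659295 to 4671390 (17 probes). Locus 3 ran over 11014556 to 11033388 (32 probes), locus 4 over 13656923 to 13752834 (154 probes) and locus 5 over 14845349 to 14878099 (52 probes). Locus 6 was the smallest, with 11 probes over 42475674 to 42483940. Locus 7 ran over 45124111 to 45146481 (59 probes), and locus 8, the largest, over 53956529 to 54083153 (237 probes).

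Averaged over all 8 heifers, the loci ranged from low to high capture, and loci 6, 7 and 8 each averaged below every one of loci 1 to 5. Locus 6 had the lowest mean of the 97 loci on the array, at -0.72 (SE 0.09), and locus 3 the highest of the 97, at 0.31 (SE 0.10). Locus 8 averaged -0.40 (SE 0.09), locus 7 -0.25, locus 1 -0.11, loci 4 and 5 each 0.04, and locus 2 0.20. Against the array median, limma called 2 chromosome 7 loci below it, locus 6 (adjusted p = 0.00027) and locus 8 (adjusted p = 0.00892), where 34% of all loci were so called. It called 1 above it, locus 3 (adjusted p = 0.0249), where 7.22% of all loci were. With 8 loci these counts are 25% and 12.5%, close to the shares of the whole array, and the remaining 5 loci did not pass the test. Locus 6 alone was below 0 on every array, against 9.28% of all loci.

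**Figure D1:**
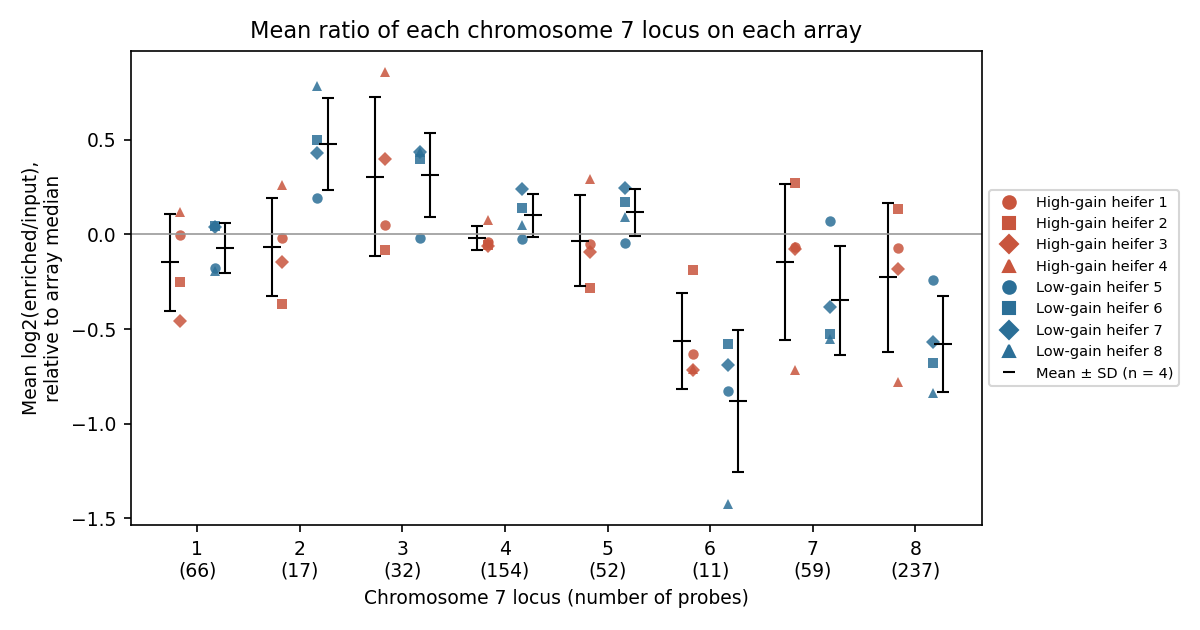
Mean log2 ratio of enriched over input DNA in each of the 8 chromosome 7 loci, relative to the array median (vertical axis), with 1 point per heifer, high-gain left of low-gain in each locus, and black marks for the group mean ± SD (n = 4). Locus 6 lies below 0 on all 8 arrays, the groups overlap in every locus, and high-gain heifer 4 lies with the low-gain heifers in loci 7 and 8.

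The low mean of locus 6 was carried largely by 1 probe. Its mean was -0.63, -0.19, -0.72 and -0.71 in high-gain heifers 1 to 4, against -0.83, -0.58, -0.69 and -1.42 in low-gain heifers 5 to 8. All 8 arrays were below 0 and the groups overlapped. The probe at 42480816 to 42480861 read -4.85, -5.07, -4.64 and -5.36 in high-gain heifers and -6.40, -4.25, -4.43 and -5.34 in low-gain heifers, the second-lowest mean (-5.04) of all 10249 probes. It was not a dim probe: its input signal stood 6.87 log2 units above the array median of input and its enriched signal 2.11 above that of the enriched channel. Without it the mean of locus 6 was -0.12 ± 0.28 in the high-gain and -0.46 ± 0.38 in the low-gain group (SD, n = 4 each), with 7 of 8 arrays below 0. With the median over its 11 probes in place of the mean, the locus stood at -0.34 and was no longer called (adjusted p = 0.063).

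**Figure D2:**
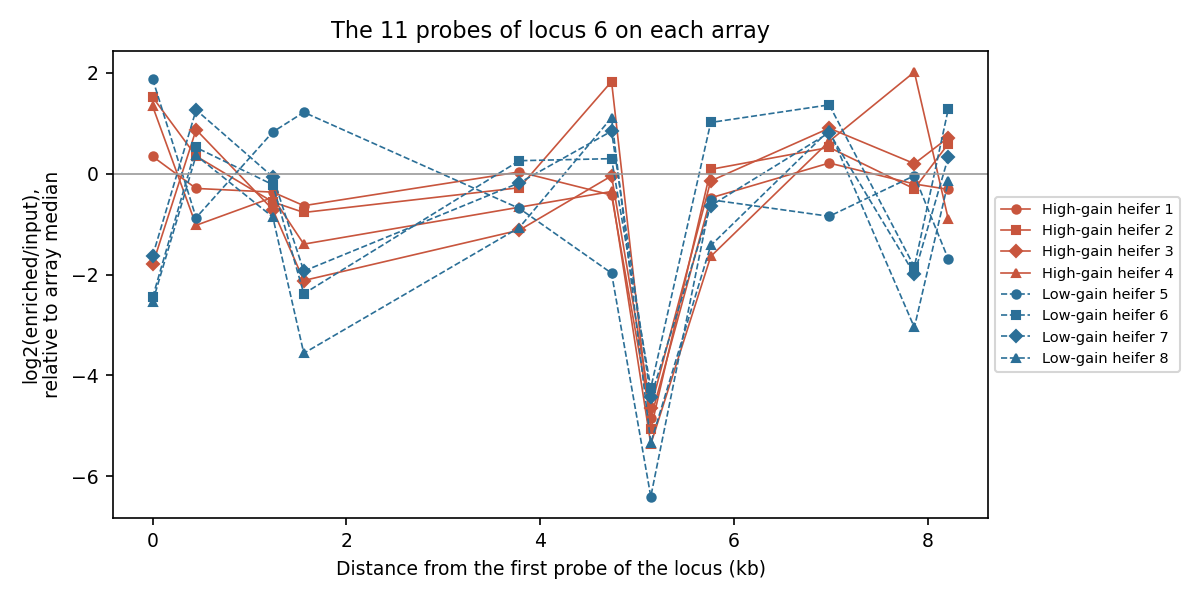
Log2 ratio of the 11 probes of locus 6 relative to the array median (vertical axis) against distance from the first probe in kb, with 1 line per heifer, solid for high-gain and dashed for low-gain. Every array drops to between -6.40 and -4.25 at a single probe, and no other probe of the locus is below 0 on all 8 arrays.

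Locus 1 held 2 more probes of this kind. The probe at 3959314 to 3959359 averaged -4.67 ± 0.36 in the high-gain and -4.74 ± 0.92 in the low-gain group (SD, n = 4 each), and the probe at 3940675 to 3940735 averaged -3.74 ± 0.78 in the high-gain and -4.24 ± 0.32 in the low-gain group. Their input signals stood 7.48 and 5.51 log2 units above the array median of input. Their enriched signals stood 3.07 and 1.81 above that of the enriched channel. Both were thus brighter than the typical probe in each channel, and more so in the input. They ranked 5 and 10 from the lowest of the whole array, which had 17 probes with a mean of -3 or lower, 3 of them on chromosome 7; this limit was chosen after the values were seen. The probe of locus 6 and the probe at 3959314, which lie on different loci of the chromosome, tracked each other closely. On every array the locus 6 probe read lower, by between 0.17 and 0.47 log2 units, while across arrays the first ran between -6.40 and -4.25 and the second between -5.98 and -4.01. Without the probe at 3959314, its region of 3 probes averaged 0.67, against -1.12 with it, so this region's low value rested on that probe. Without both of its low probes, locus 1 averaged -0.02 ± 0.26 in the high-gain and 0.07 ± 0.12 in the low-gain group (SD, n = 4 each).

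Single probes were called below the array median 29 times (4.62%, against 4.23% of all probes) and above it 8 times (1.27%, against 1.31%). Of the 625 probes with a value on every array, 24 (3.84%) were below 0 on all 8, against 3.33% of all probes, and 17 (2.72%) above 0 on all 8, against 3.47%. A mean of at least 1 below the array median was found at 77 probes (12.3%), against 11.3% of all probes. In these counts chromosome 7 was close to the array as a whole.

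At the scale of regions, chromosome 7 had more regions of low capture than the array as a whole. limma called 13 of its 62 regions (21%) below the array median, against 9.58% of all regions, and 1 (1.61%) above it, against 3.33%. It had 6 regions (9.68%) below 0 on all 8 arrays, against 5% of all regions, and 1 (1.61%) above 0 on all 8, against 1.88%. A mean of at least 1 below the array median was found in 3 regions (4.84%), against 1.04% of all regions. Of the 13 low regions, 8 lay in locus 8, 3 in locus 1, 1 in locus 4 and 1 in locus 6. The 5 lowest began at 42479459 (-1.45), 3959314 (-1.12), 54021356 (-1.01), 53974891 (-0.93) and 54023564 (-0.79). The first 2 are those that contain the probes described above, and the other 3 lie in locus 8. The region at 42479459 averaged -1.44 ± 0.47 in the high-gain and -1.46 ± 0.75 in the low-gain group (SD, n = 4 each) and was the lowest of all 960 regions, but without its low probe its mean was -0.26, with 5 of 8 arrays below 0. With the median over probes in place of the mean, 1 region of the 62 was called below the array median.

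Locus 8 was low along most of its 126.6 kb. Of its 18 regions 17 averaged below 0, and 156 of its 237 probes did. The region at 53974891 to 53976235 (6 probes) read -0.55, -0.21, -1.27 and -1.16 in high-gain heifers and -0.46, -1.09, -1.43 and -1.30 in low-gain heifers, below 0 on all 8 arrays, with an adjusted p of 0.00393 against the array median. The region at 54021356 to 54021884 (3 probes) averaged -0.74 ± 0.55 in the high-gain and -1.28 ± 0.81 in the low-gain group, and the region at 54023564 to 54027393 (10 probes) -0.56 ± 0.66 in the high-gain and -1.01 ± 0.32 in the low-gain group (SD, n = 4 each). In the order given, 2 of 6, 0 of 3 and 4 of 10 probes were above background in the enriched channel on all 8 arrays. In all 3 regions both group means were below 0 and the groups overlapped. With normexp background correction they averaged less far below the array median, at -0.39, -0.47 and -0.34 in the same order, and remained called.

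The only chromosome 7 region called above the array median lay in locus 4, at 13660351 to 13661599 (4 probes). It read 0.22, 0.33, 0.13 and 0.47 in high-gain heifers and 0.59, 0.47, 1.40 and 1.097 in low-gain heifers, above 0 on all 8 arrays (mean 0.59, adjusted p = 0.0141, and 0.18 with normexp, adjusted p = 0.0483). The next 4 in rank were the region at 4668571 of locus 2 (0.50) and the regions at 11025163, 11027737 and 11030768 of locus 3 (0.38, 0.37 and 0.33), none of which passed. Locus 3, in which all 4 regions averaged above 0, read 0.05, -0.08, 0.40 and 0.86 in high-gain heifers and -0.02, 0.40, 0.44 and 0.44 in low-gain heifers, so that high-gain heifers 1 and 2 and low-gain heifer 5 did not share its high level. With normexp the regions at 11025163, 11027737 and 11030768 averaged 0.05, 0.04 and 0.23. Under the alternatives described below, the mean of locus 3 lay between 0.07 and 0.53 (limma, adjusted p from 8.3e-05 to 0.600).

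Part of this profile went with the length of the probes. Of the 628 probes 209 were 45 bases long, 250 were 60 bases long and 169 lay between. Probes of 60 bases made up 74.7% of locus 8 and 66.1% of locus 7, but between 0% and 27.3% of the other loci. The 60-base probes averaged -0.28 ± 0.43 in the high-gain and -0.60 ± 0.25 in the low-gain group, and the 45-base probes -0.01 ± 0.24 in the high-gain and 0.24 ± 0.19 in the low-gain group (SD, n = 4 each). The gap between 60-base and 45-base probes on chromosome 7 was -0.12, 0.38, -0.15 and -1.20 in high-gain heifers and -0.23, -1.11, -0.99 and -1.05 in low-gain heifers. It was wide on 4 arrays, those of high-gain heifer 4 and low-gain heifers 6, 7 and 8. The same 4 arrays had the wide gap on the other chromosomes, where it was -0.12, 0.37, -0.15 and -0.95 in high-gain heifers and -0.13, -0.98, -0.89 and -0.95 in low-gain heifers.

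When each array was centred within probe-length classes, a step added after the data were seen, locus 8 averaged -0.07 and was no longer called low (adjusted p = 0.357), and locus 3 averaged 0.21 and was no longer called high (adjusted p = 0.110). Locus 6 stayed at -0.69 (adjusted p = 0.00024). The number of chromosome 7 regions called low was 7 (11.3%) in place of 13, against 5.83% of all regions with the same centring, and the regions at 54021356 and 53974891 remained called, at -0.56 and -0.55. Length itself, base composition and CpG content cannot be told apart as the source of this gap without the probe sequences, which were not used here.

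**Figure D3:**
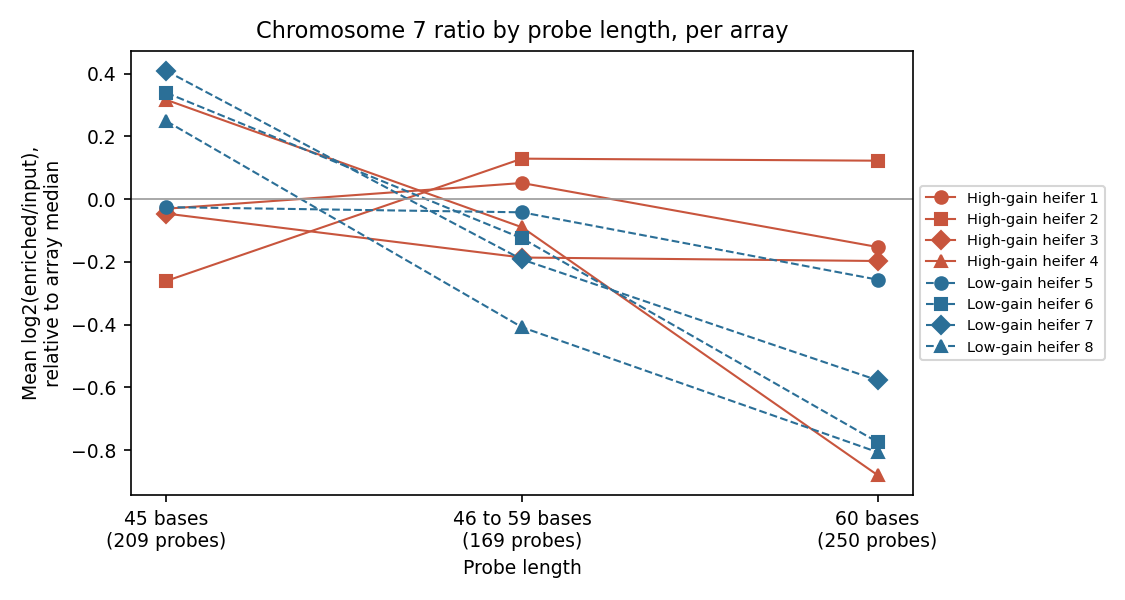
Mean log2 ratio of chromosome 7 probes of 45, 46 to 59 and 60 bases relative to the array median (vertical axis), with 1 line per heifer, solid for high-gain and dashed for low-gain. The lines of high-gain heifer 4 and low-gain heifers 6, 7 and 8 drop steeply toward 60-base probes, and those of the other 4 heifers do not.

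The comparison of high-gain with low-gain heifers asked whether the feeding schedule went with a difference in methylation. At the level of loci none of the 8 passed the adjusted threshold of 0.05 (limma, Benjamini-Hochberg over 97 loci), nor did any locus of the array (0%). One of the 8 (12.5%) was lower in high-gain heifers at an unadjusted p under 0.05, against 10.3% of all loci, and none was higher, against 4.12%. The groups overlapped in all 8 loci, against 2.06% of all loci without overlap in each direction. By sign alone, 3 of the 8 loci had the greater mean in high-gain heifers, as did 46.4% of all loci.

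Locus 2 had the smallest p of the 97 loci. It averaged -0.02, -0.37, -0.14 and 0.26 in high-gain heifers and 0.19, 0.50, 0.43 and 0.78 in low-gain heifers. Only high-gain heifer 4 reached into the low-gain range. The high-gain minus low-gain difference was -0.54 (SE 0.16, unadjusted p = 0.00447, adjusted p = 0.240). The high-gain mean was the greater in 0 of its 3 regions, against 47.9% of all regions, and in 2 of its 17 probes (11.8%, against 44.7% of all probes). These probes make up the locus mean, so their signs are not separate evidence. Of the 17 probes 11 were 45 bases long, a class that differed by -0.28 on the other chromosomes. Within the upper row of the slide, which held heifers 1, 2, 5 and 6, the difference was -0.54, and within the lower row it was -0.55. Fitted alone, the enriched channel differed by -0.62 (adjusted p = 0.0256, in a fit added after the data were seen) and the input channel by -0.07 (adjusted p = 0.964). With centring within probe-length classes the difference was -0.38 (adjusted p = 0.496), and with normexp background correction it was -0.15. The adjusted p of the ratio passed when high-gain heifer 4 was left out (-0.65, adjusted p = 0.0284) and when low-gain heifer 5 was (-0.64, adjusted p = 0.0402), and did not when any other heifer was. The share of all loci that passed with a heifer left out was not counted.

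Loci 6, 7 and 8 leaned the other way. Locus 8 averaged -0.07, 0.14, -0.18 and -0.78 in high-gain heifers, against -0.24, -0.68, -0.57 and -0.84 in low-gain heifers, a difference of 0.35 (SE 0.19, adjusted p = 0.421). The high-gain mean was the greater in 15 of its 18 regions, against 47.9% of all regions, and in 154 of its 237 probes (65.0%, against 44.7% of all probes). In loci 1 to 5 the low-gain mean was the greater for most probes. High-gain heifer 4 stood apart from the other 3 of its group in this locus and among the low-gain values. The difference was 0.49 within the upper row of the slide and 0.22 within the lower, and 0.06 after centring within probe-length classes. Locus 7 averaged -0.07, 0.27, -0.08 and -0.71 in high-gain heifers and 0.07, -0.53, -0.38 and -0.55 in low-gain heifers, a difference of 0.20 (adjusted p = 0.609) that became -0.06 after that centring. Locus 6 differed by 0.32 (adjusted p = 0.440), beside a difference of -0.52 in its input channel alone (unadjusted p = 0.00581, adjusted p = 0.481).

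The other loci differed by little. The difference was -0.08 in locus 1 (adjusted p = 0.776), -0.01 in locus 3 (0.968), -0.12 in locus 4 (0.600) and -0.15 in locus 5 (0.600). In locus 4, the second-largest locus, the spread between heifers was the smallest of the 8, with means of -0.02 ± 0.06 in the high-gain and 0.10 ± 0.11 in the low-gain group (SD, n = 4 each).

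Among regions, 0 of the 62 on chromosome 7 passed the adjusted threshold (limma, Benjamini-Hochberg over 960 regions), against 0.104% of all regions, and the smallest adjusted p was 0.111. At an unadjusted p under 0.05, 6 (9.68%) were higher in high-gain heifers, against 6.25% of all regions, and 7 (11.3%) lower, against 8.23%. The high-gain and low-gain heifers did not overlap in 5 regions (8.06%) that were higher in high-gain heifers, against 2.6% of all regions, and in 2 (3.23%) that were lower, against 3.65%. By sign alone, 33 of the 62 (53.2%) had the greater mean in high-gain heifers, against 47.9% of all regions.

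The region with the smallest p was at 13675067 to 13678147 in locus 4 (6 probes). It read -0.10, 0.36, -0.37 and 0.31 in high-gain heifers and -0.70, -1.35, -1.07 and -1.46 in low-gain heifers. Every low-gain heifer was below every high-gain heifer. The difference was 1.19 (SE 0.26, unadjusted p = 0.000556, adjusted p = 0.111). It was 1.15 within the upper and 1.23 within the lower row of the slide, and 1.18 after centring within probe-length classes. Fitted alone, the enriched channel differed by 1.04 and the input channel by -0.15. Of the 6 probes of the region, 3 were above background in the enriched channel on all 8 arrays. Without low-gain heifer 5 the region passed, at 1.34 (adjusted p = 0.0277). The share of all regions that passed without this heifer was not counted. Of all probes 3.01% passed without it, against 0% with all 8 heifers. No other of the 18 regions of locus 4 had a greater high-gain mean at an unadjusted p under 0.05. One more, at 13711571, had no overlap between the groups (difference 0.44, unadjusted p = 0.0677), and it is named here after its values were seen.

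**Figure D4:**
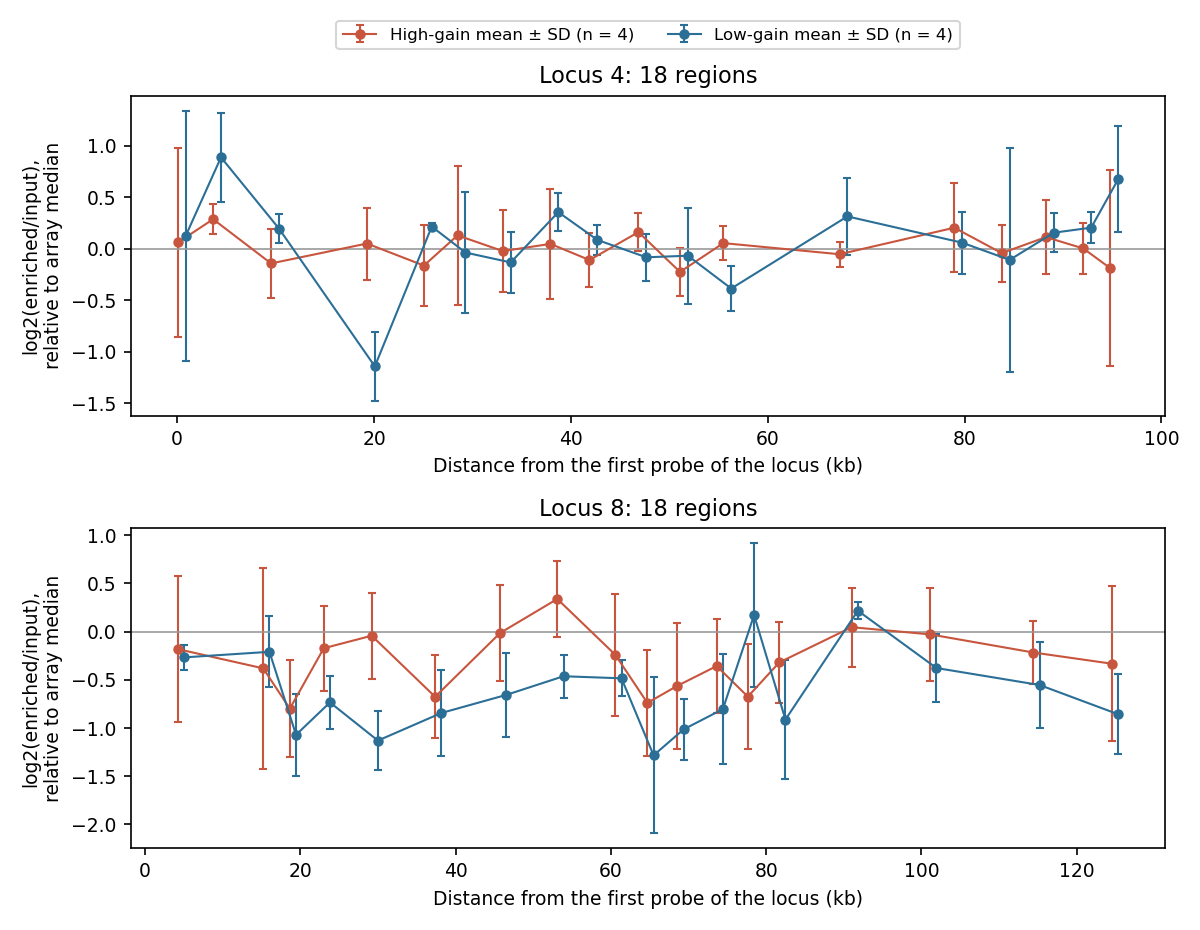
Region means of the log2 ratio relative to the array median (vertical axis) along locus 4 (top) and locus 8 (bottom) against distance from the first probe in kb, as mean ± SD of the 4 high-gain and the 4 low-gain heifers, whose points are drawn slightly apart. In locus 4 the widest gap between the group means is in the region at 13675067, in the first part of the locus, and in locus 8 the low-gain mean is the lower in 15 of 18 regions.

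The next smallest p was in locus 8, at 53984263 to 53987957 (9 probes). It read 0.22, 0.31, -0.03 and -0.68 in high-gain heifers and -0.92, -0.90, -1.14 and -1.56 in low-gain heifers, a difference of 1.09 (SE 0.27, adjusted p = 0.173) with no overlap. The region at 54008742 to 54011293 (8 probes) averaged 0.34 ± 0.40 in the high-gain and -0.46 ± 0.22 in the low-gain group (SD, n = 4 each), again with no overlap (adjusted p = 0.226). There, 4 of the 8 probes were above background in the enriched channel on all 8 arrays, and 3 on no low-gain array. At 53984263 these counts were 5 and 2 of the 9 probes. After centring within probe-length classes, the difference at 53984263 was 0.79 (adjusted p = 0.281). Further regions of this locus were among the 8 named in this direction, at 53977213 (0.56) and 53998635 (0.64), both with an unadjusted p above 0.05.

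Of the regions named for a greater high-gain mean, 3 lay outside loci 4 and 8. The region at 11030768 to 11033388 in locus 3 (5 probes) read 0.19, 0.81, 1.53 and 0.67 in high-gain heifers and -0.13, -0.54, -0.12 and 0.26 in low-gain heifers, a difference of 0.93 (SE 0.30, adjusted p = 0.226). Only high-gain heifer 1 lay within the low-gain range. The other 3 regions of locus 3 had the greater mean in low-gain heifers, which left the locus with a difference near 0. The region at 3951770 to 3952995 in locus 1 differed by 0.76 with no overlap (adjusted p = 0.226). Of its 5 probes, 1 was above background in the enriched channel on all 8 arrays, as were 2 of the 5 at 11030768. At 42482658 to 42483940 in locus 6 the difference was 0.75 (adjusted p = 0.270), but it stood in the input channel (-0.85) and not in the enriched one (-0.10).

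In the opposite direction the region at 3964517 to 3965756 in locus 1 (3 probes) had the smallest p. It read -0.12, -0.21, -0.07 and -0.49 in high-gain heifers and 0.20, 0.64, 0.73 and 0.99 in low-gain heifers, with no overlap. None of its 3 probes was clear of background for enriched DNA on any high-gain array, and 2 of them were not on any low-gain array, so these values do not measure capture and no difference is given for the region. Its 2 neighbours in rank lay in locus 2. The region at 4668571 to 4669397 averaged 0.09 ± 0.24 in the high-gain and 0.91 ± 0.71 in the low-gain group (SD, n = 4 each, adjusted p = 0.295), and its 3 probes were above background in the enriched channel on all 8 arrays. The region at 4659295 to 4661381 averaged -0.12 ± 0.13 in the high-gain and 0.40 ± 0.19 in the low-gain group, without overlap (adjusted p = 0.299). The other 5 regions named in this direction, at 14876695, 13660351, 54033943, 3970906 and 13751461, differed by between -1.01 and -0.54, and in each the groups overlapped. At 14876695, fitted alone, the input channel differed by 0.64 and the enriched one by -0.37. At 13751461, 3 of the 5 probes were clear of background for enriched DNA on no high-gain array. In each of the regions at 14876695, 54033943 and 13751461, only 1 probe was above background in the enriched channel on all 8 arrays. With normexp background correction, the differences of the 7 regions given after 3964517 lay between -0.44 and -0.05, and those of the 8 regions named for a greater high-gain mean between 0.43 and 0.98.

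Among single probes, 0 of 628 passed the adjusted threshold, as on the whole array (0%), and the smallest adjusted p on chromosome 7 was 0.167 (limma, Benjamini-Hochberg over 10249 probes). At an unadjusted p under 0.05, 51 (8.12%) were higher in high-gain heifers, against 7.21% of all probes, and 34 (5.41%) lower, against 5.23%. The groups did not overlap at 20 probes (3.2%) that were higher in high-gain heifers, against 2.67% of all probes, and at 29 (4.64%) that were lower, against 4.2%. These shares are close to those of the array as a whole. By sign alone, 306 of the 628 (48.7%) had the greater mean in high-gain heifers, against 44.7% of all probes. Without low-gain heifer 5, 19 of the 628 probes (3.03%) passed the adjusted threshold, against 3.01% of all probes, and without any other heifer 0 did.

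Fitted alone, the channels differed between groups as often as elsewhere on the array or slightly more often. At an unadjusted p under 0.05 in either direction, the enriched channel differed at 61 probes (9.71%, against 7.53% of all probes), 8 regions (12.9%, against 9.69%) and 1 locus (12.5%, against 8.25%). The input channel, which was labelled without capture, differed at 33 probes (5.25%, against 5.01%), 4 regions (6.45%, against 3.65%) and 1 locus (12.5%, against 8.25%). No chromosome 7 probe, region or locus passed the adjusted threshold in the input channel, as on the whole array (0%).

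The probes with small p differed in signal between the directions. Of the 51 on the high-gain side, 32 (62.7%) had an enriched signal clear of background on all 8 arrays, and 48 (94.1%) had such an input signal. The 34 on the low-gain side were dimmer. Their enriched signal was clear of background on all 8 arrays for 13 (38.2%) and on none for 14 (41.2%), and their input signal on all 8 for 14 (41.2%). Over all 628 probes, 47.8% were above background in the enriched channel on all 8 arrays and 10.2% on no array. In the input channel 72.5% of the 628 were above background on all 8. For a probe that is not above background the ratio has no measured numerator. Where that holds on every array no difference is given, although such probes stand in the counts above.

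**Figure D5:**
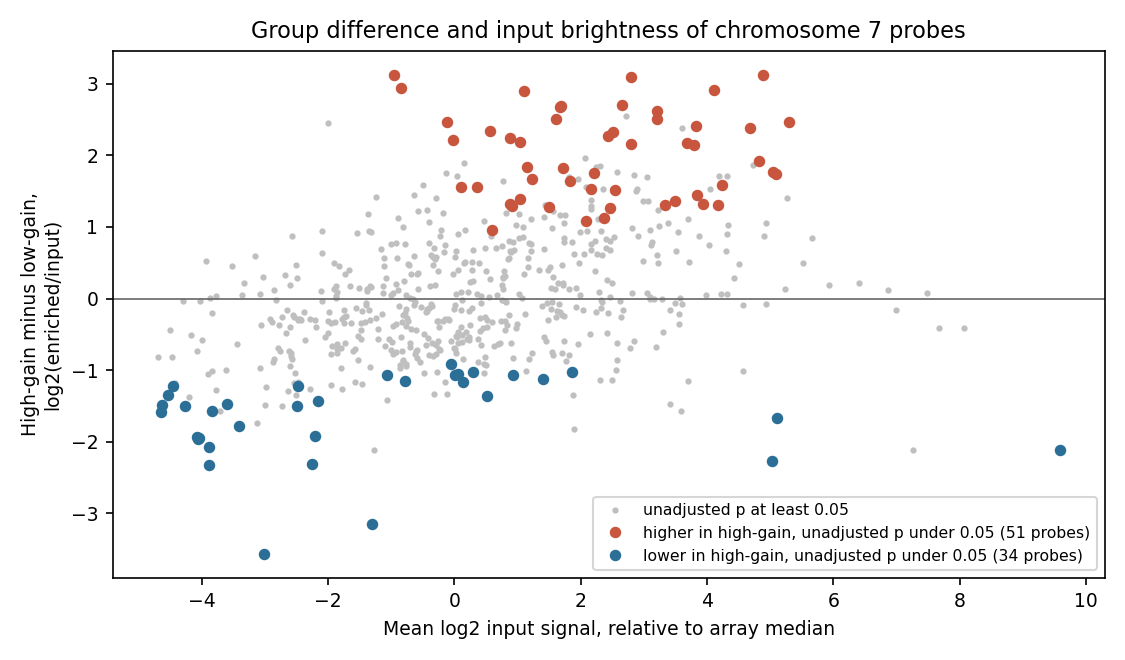
High-gain minus low-gain difference of the log2 ratio (vertical axis) against mean log2 input signal relative to the array median (horizontal axis) for the chromosome 7 probes, with the 51 probes higher and the 34 probes lower in high-gain heifers at an unadjusted p under 0.05 in colour. The probes higher in high-gain heifers have mostly bright input, and many of those lower in high-gain heifers have input far below the array median.

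The 8 named probes on the high-gain side illustrate the first set. The probe at 53982597 to 53982657 in locus 8 read 1.13, 1.20, 1.06 and 1.25 in high-gain heifers and 0.06, -1.81, -1.33 and -1.89 in low-gain heifers, a difference of 2.40 (SE 0.50, adjusted p = 0.249), and was above background in both channels on every array. The high-gain heifers were tightly grouped and low-gain heifer 5 was closest to them. At 13736169 to 13736214 in locus 4 the values were 0.53, 0.52, 0.53 and 0.47 in high-gain heifers and 0.07, -2.80, -2.33 and -3.64 in low-gain heifers (difference 2.69, adjusted p = 0.272), and the enriched signal was above background on all 4 high-gain and 2 low-gain arrays. The probe with the smallest p in this direction, at 13689509 to 13689569 in locus 4, differed by 2.70 (adjusted p = 0.249). The other 5, at 53999167, 53980398, 53986090, 45133707 and 53980649, differed by between 2.15 and 2.67. At 45133707 the enriched signal was above background on all 4 high-gain arrays and 1 low-gain array, and at 53980649 on all 4 high-gain and 2 low-gain arrays, so the low-gain side of both was partly at background.

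On the low-gain side, 7 of the 8 named probes had an enriched signal above background on at most 1 array of each group. The one with the smallest p, at 53971761 to 53971821 in locus 8, is also the probe with the adjusted p of 0.167 given above. Its enriched signal was above background on no array and differed by -0.27 log2 units between the groups. Its input signal was above background on all 4 high-gain and on no low-gain array, and differed by 3.30 log2 units, so its p does not rest on a measured difference in capture. The exception was the probe at 3971599 to 3971644 in locus 1, bright in both channels on every array. It read 0.59, 0.54, -0.03 and 1.68 in high-gain heifers and 0.97, 3.64, 3.85 and 2.79 in low-gain heifers (difference -2.12, SE 0.68, adjusted p = 0.317), with low-gain heifer 5 inside the high-gain range.

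Runs, meaning 3 or more adjacent probes within 1000 bp that all had an unadjusted p under 0.05 in 1 direction, occurred once on chromosome 7 and 13 times on the whole array. It lay in locus 8 at 53980015 to 53980709 and held 3 probes. Their mean was -0.26, 0.41, -0.54 and -0.18 in high-gain heifers and -2.27, -2.21, -1.28 and -2.93 in low-gain heifers, a difference of 2.03. Every low-gain heifer, heifer 5 included, lay below every high-gain heifer. The enriched signal differed by 1.71 and the input signal by -0.31. Each of the 3 probes was chosen for a small p in this direction, so a wide difference of their mean follows from the choice. At 1 of them, 53980649, the enriched signal was above background on only 2 low-gain arrays.

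The arrays did not resemble one another by feeding group. Across the chromosome 7 probes, Pearson's r of the log2 ratio was between 0.613 and 0.760 among low-gain heifers 6, 7 and 8. Low-gain heifer 5 correlated with these 3 at only 0.083 to 0.122. Its r with high-gain arrays was 0.171 to 0.316. Pairs of high-gain arrays gave 0.092 to 0.300. Paired with low-gain heifers 6, 7 and 8, high-gain heifer 4 gave 0.248 to 0.275 and high-gain heifer 3 gave 0.251 to 0.267. High-gain heifers 1 and 2 gave -0.013 to 0.144 with the same low-gain arrays. These correlations run over probes that share probe length, base composition and dye, and are given as a description.

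The contrast between the highest and one of the lowest loci split the arrays in another way than the correlations did. Locus 3 minus locus 8 was 0.12, -0.22, 0.58 and 1.64 in high-gain heifers and 0.22, 1.08, 1.00 and 1.27 in low-gain heifers. The share of variance among chromosome 7 probes that lay between loci was 1.16%, 3.35%, 2.01% and 9.92% in high-gain heifers and 1.73%, 7.83%, 8.98% and 8.88% in low-gain heifers. Low-gain heifers 6 to 8 and high-gain heifer 4 thus had the strongest gradient between loci, and they are the 4 arrays with the wide gap between probe lengths.

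Summed over the chromosome, the mean log2 ratio was -0.12 ± 0.12 in the high-gain and -0.21 ± 0.10 in the low-gain group (SD, n = 4 each; exact permutation test, two-sided, p = 0.286). The interquartile range over probes was 1.37 ± 0.65 in the high-gain and 1.90 ± 0.49 in the low-gain group (exact permutation p = 0.257). Relative to the mean of all other chromosomes, chromosome 7 stood at -0.02 ± 0.05 in the high-gain and -0.09 ± 0.07 in the low-gain group (exact permutation p = 0.171). Over all 8 arrays it stood 0.05 below the rest, on 6 of 8 arrays (exact sign-flip permutation p = 0.0625, smallest possible 0.00781). The median of chromosome 7 minus that of the rest was -0.07, below 0 on 4 of 8 arrays (exact sign-flip permutation p = 0.125).

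The share of chromosome 7 probes with enriched signal well above background was 76.1%, 78.5%, 73.9% and 76.4% in high-gain heifers and 70.2%, 68.5%, 71.2% and 54.0% in low-gain heifers. Every high-gain array was above every low-gain array. The exact permutation p was 0.0286, the smallest that 4 against 4 arrays allow, and 0.171 after Benjamini-Hochberg adjustment over the 6 measures per array. In the input channel the share was 87.0% ± 4.80 in the high-gain and 85.7% ± 1.49 in the low-gain group (SD, n = 4 each, exact permutation p = 0.771). The share over the other chromosomes was not counted here, so whether the separation in the enriched channel is particular to chromosome 7 is not known. What part this difference in enriched signal has in the region and probe differences above was not tested.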

How the data were processed

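Per the labels' protocols, MBD-enriched and input DNA of each heifer were labelled with different dyes and co-hybridised on a 2-colour Agilent array. Per the file headers, the deposited intensity values are the red and green processed signals of Feature Extraction 10.7.1.1 (protocol ChIP_107_Sep09). The authors' deposited log2 table held, at 80944 of 80944 spots with both differences positive, the ratio of median minus background signals in log2 (tolerance 0.0001), and served as an alternative. The array medians of that table were removed before use.

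From the processed signals, log2(red/green) was centred on the median over 10249 non-control probes per array, with outlier-flagged spots left out. limma 3.58.1 in R 4.3.3 was fitted on all probes, all 960 regions and all 97 loci of at least 10 probes, over 8 arrays and with no covariate, with Benjamini-Hochberg adjustment and a threshold of 0.05. Profile tests set the average of the high-gain and low-gain means against 0. With 4 arrays per group, their number limits the precision. The heifers are separate animals per the labels.

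Every locus is described. Named regions were the 5 highest and 5 lowest of the profile and up to 8 per direction with the smallest unadjusted p. Named probes were up to 8 per direction by the same measure, with every run of probes. The members and lists were chosen with earlier results of these data known. Alternatives were normexp (offset 50, on median signals, since no mean foreground signals were used here), loess, scaling between arrays, the authors' values, filters on dim probes, slide row as a block and within each row, other gaps and summaries, and each heifer left out. Sequences and gene annotation in Btau_3.1 were not used here.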

Additional observations from a re-analysis of the deposited data

Results flagged for a closer look

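In 108 groups of 4 heifers (loci, named regions and probes, and measures per array) the highest or lowest array was set against the other 3, and 8 stood apart by Dixon's criterion. Chance flags about 1 group in 20, or 5.4 of 108, so single cases carry little weight. Low-gain heifer 5 stood apart from the other low-gain heifers 3 times: its mean in locus 3 was -0.0183 (others 0.40 to 0.44), in the region at 11025163 of that locus -0.0382 (others 0.55 to 0.65), and at the probe at 53999167 -0.38 (others -2.08 to -1.88). High-gain heifer 4 stood apart from the other high-gain heifers 3 times: in locus 4 at 0.0738 (others -0.06 to -0.04), in the median of chromosome 7 minus that of the other chromosomes at -0.17 (others 0.00626 to 0.0421), and at the probe at 53978367 at -2.25 (others -0.25 to 0.00198). High-gain heifer 2 read -0.19 in locus 6 (others -0.72 to -0.63). Low-gain heifer 8 had 54.0% of chromosome 7 probes above background in the enriched channel (others 68.5% to 71.2%).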

How the results depend on the processing

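Apart from the fit of the enriched channel alone, no locus passed the adjusted threshold between groups under any alternative that kept all 8 heifers or split them by slide row. The 13 regions called below the array median were 20 with normexp, 7 with scaled arrays, 8 with both channels above background on at least 4 arrays, 4 within the upper slide row, 1 with the median over probes, 7 with centring within probe-length classes, and 8 to 16 with a heifer left out. The 1 region above it was 2 with normexp, 9 with loess, 2 with the authors' values, 2 with the filter on input, 3 with slide row as a block, 0 within the upper row, 3 with a 500 bp gap, 0 with the median over probes, and 0 to 4 with a heifer left out. Between groups, the median over probes gave 1 region past the adjusted threshold. Leaving out a heifer gave 0 to 19 probes, 0 to 2 regions and 0 to 1 loci past it, the highest counts of probes and regions without low-gain heifer 5. At an unadjusted p under 0.05, leaving out a heifer gave 28 to 87 probes higher and 15 to 74 lower, and 6 to 10 regions higher and 2 to 10 lower. Under these alternatives shares over the whole array were counted only for probes without low-gain heifer 5 and for low regions with centring by length. The other counts do not show whether chromosome 7 differs from the rest of the array.

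Chromosome 7 minus the rest, over all arrays, was -0.0583 with normexp (exact sign-flip p = 0.0234) and -0.0662 with loess (exact sign-flip p = 0.00781). Its median was -0.0443 with normexp (exact sign-flip p = 0.0234), and the mean -0.0647 to -0.0382 with a heifer left out. With the filter on input the mean was -0.00974, below 0 on 4 of 8 arrays (exact sign-flip p = 0.727). It was -0.028 with the filter on both channels (exact sign-flip p = 0.3125) and -0.0296 with centring by length (exact sign-flip p = 0.109). The group difference in mean log2 ratio was -0.00409 with loess, that in interquartile range 0.0446 with scaled arrays, and that in the percent of probes with input above background -1.75 within the upper row and -0.849 to 2.97 with a heifer left out.

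Signs turned mainly where values were near 0. Between groups, locus 1 differed by 0.105 with normexp, 0.044 with the filter on input, 0.0146 with the filter on both channels, 0.0417 with centring by length, and -0.165 to 0.0271 with a heifer left out. Locus 3 differed by 0.135 with normexp, 0.0279 with scaled arrays, 0.0239 with the authors' values, 0.0155 with the filter on both channels, 0.192 within the lower row, 0.156 with centring by length, and -0.191 to 0.122 with a heifer left out. Locus 4 differed by 0.099 and locus 5 by 0.0697 with normexp, and with centring by length locus 5 by 0.00533 and locus 7 by -0.0616. Profile means turned for locus 4 (-0.0665 with normexp, -0.000162 with centring by length), locus 5 (-0.0277 with normexp, -0.0139 with scaled arrays, -0.0517 within the upper row, -0.0697 with centring by length, -0.013 to 0.083 with a heifer left out), locus 7 (0.0414 with centring by length), locus 1 (0.0497 with the median over probes) and the region at 3959314 (0.408 with the median over probes). The cause was not tested.

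No paired analysis was possible because the heifers are numbered 1 to 8 and the groups share no number. Dim enriched signal limits the probes lower in high-gain heifers most, and 4 heifers per group limit all tests.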
